A study of Mus musculus with 11 samples.

Results

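Pool 3 against pools 1 and 4 is a comparison of 6 of the 11 RNA-seq libraries in a study of Akt1 knockdown in primary ovarian granulosa cells of RjOrl:SWISS mice, the somatic cells that surround the oocyte in the follicle. Pool 3 gave 2 libraries and held Akt1 siRNAs 6, 7 and 9. They were set against 4 libraries, 2 of pool 1 (siRNAs 6, 7 and 8) and 2 of pool 4 (siRNAs 7, 8 and 9). All 6 libraries thus came from cells given siRNA 7, and pool 3 lacked siRNA 8, which pools 1 and 4 both held. Pool 3 also joined siRNAs 6 and 9, while pools 1 and 4 each held only 1 of them, so that the absence of siRNA 8 and the presence of siRNAs 6 and 9 together cannot be told apart. The other 5 libraries took no part in the comparison and are shown for levels: 2 of pool 2, which held siRNAs 6, 8 and 9 and lacked siRNA 7, and 3 of a nontargeting scrambled siRNA, called scramble.

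Per the labels, cells in 6-well plates were transfected transiently with 30 pmol of siRNA in Lipofectamine RNAiMax, the mix was replaced by medium at 5 h, and the cells were lysed for RNA at 30 h. The protocol numbers the pools KD1 to KD4 and the sample titles number them Pool1 to Pool4, and the match by number is an assumption. No label says that the libraries of a pool came from separate cultures or animals, so the p-values rest on the spread among these libraries alone, which may be technical. The comparison asks which genes differed with the make-up of the pool among pools that all targeted Akt1 and held siRNA 7. The remaining level of Akt1 mRNA was not held in common, as it was higher in pool 3 (0.40 log2). Genes that follow the Akt1 level and genes that follow the siRNAs themselves cannot be told apart here.

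An siRNA is a short RNA duplex. One of its strands is loaded into an Argonaute protein, which cuts an mRNA that pairs with it along its length, here the Akt1 mRNA. The same complex can lower other mRNAs that pair only with the seed, the first few bases of the loaded strand, and pools are used to spread that load over several sequences. AKT1 is a protein kinase that PI3K signalling switches on, and it passes signals of insulin, IGF1 and follicle-stimulating hormone to growth and metabolism, among others by keeping FOXO transcription factors out of the nucleus. Granulosa cells nurse the oocyte, convert steroids and secrete inhibin and activin. The sources used here do not give the sequences of the siRNAs, so no pairing was examined.

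The 6 libraries held 25568277 to 31907141 reads in genes, with ERCC spike-in sequences at 0.268% to 0.558% of counts. Levels are given as CPM, the usual unit of counts scaled to a common total of reads in genes, after TMM scaling over all 11 libraries, and differences as log2 fold changes from edgeR. Of 24490 genes, 13953 passed the filter on low counts and were tested. The first principal component of the 6 libraries held 51.2% of the variance and placed pool 3 at −16.8 and −13.4, against 6.54 to 8.30 for pools 1 and 4. The labelled cell type was checked on its markers. Foxl2, Inha, Nr5a2, Esr2, Wt1 and Amhr2 were present, at mean levels over the 6 libraries of 51.8 CPM (Esr2) to 1580 CPM (Inha). Fshr, Amh and Cyp19a1 were near absent, at 0.186, 0.435 and 2.18 CPM.

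Akt1, the target, was higher in pool 3 than in pools 1 and 4. It was at 77.4 and 79.8 CPM in pool 3, against 63.0 and 57.7 CPM in pool 1 and 54.6 and 61.7 CPM in pool 4. Pool 2 had 54.0 and 56.7 CPM and scramble 523, 441 and 410 CPM, so the pool 3 libraries lay above all 6 libraries of the other pools and far below scramble. The difference was 0.40 ± 0.045 log2 (SE, 2 libraries against 4; edgeR adjusted p = 7.4e-07). The related kinase gene Akt2 was not called. It was at 54.8 ± 1.69 CPM in pool 3 and 55.4 ± 1.07 CPM in pools 1 and 4 (SD, n = 2 and n = 4). In mm10, Akt1 (ENSMUSG00000001729.14) occupies bases 112653821 to 112674884 of chromosome 12, on the minus strand.

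Many genes differed by a little and few by much. In edgeR's quasi-likelihood test 4124 of 13953 genes (29.6%) had an adjusted p below 0.05, which is called a call here. Of these, 1878 (13.5% of genes tested) were higher in pool 3 and 2246 (16.1%) were lower. The median size of a called change was 0.208 log2. A change of at least 1.5-fold was called in 301 genes (2.16%), 166 higher (1.19%) and 135 lower (0.968%). At 2-fold or more, 55 genes were higher (0.394%) and 29 lower (0.208%). Without regard to the test, both pool 3 libraries lay above all 4 others in 3199 genes (22.9%) and below them in 3279 (23.5%). The count of calls fell to 2308 without pool 3 replicate 1. In a fit of all 11 libraries with a shared estimate of spread, 2 genes were called, P2rx4 and Atg9b, while the same fit without scramble replicate 1 called 3469.

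**Figure D1:**
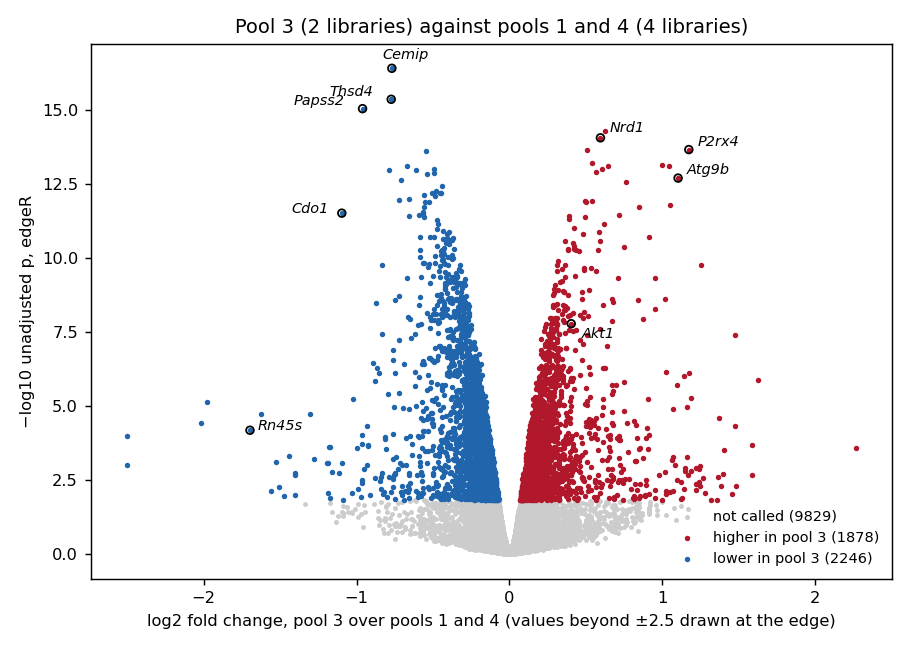
Log2 fold change of pool 3 over pools 1 and 4 (x axis) against −log10 of the unadjusted edgeR p (y axis) for the 13953 genes tested, with 1878 called higher, 2246 called lower and the rest in grey. P2rx4, Atg9b and Nrd1 lie high on the right, Cemip, Thsd4 and Papss2 high on the left, and Akt1 at 0.40.

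Against each pool by itself, pool 3 differed in 3732 genes from pool 1 (26.7%, 1713 higher and 2019 lower) and in 3062 genes from pool 4 (21.9%). Against pool 4, 1325 genes (9.50%) were higher and 1737 lower. These comparisons share the pool 3 libraries, and 1078 genes (7.73%) were called higher in both. Pools 1 and 4 differed from each other in 6 genes (0.0430%), while 762 (5.46%) had an unadjusted p below 0.05. All of the 6 were lower in pool 1, and they were the immediate early genes Cyr61, Ier2, Fos and Egr1, the ribosomal RNA precursor Rn45s and the nuclear RNA Malat1. Egr1, for example, was at 35.1 and 30.8 CPM in pool 1, against 69.0 and 71.4 CPM in pool 4, and pool 3 at 68.5 and 70.2 CPM overlapped pool 4. With 1 library left out the count of 6 ranged up to 58 (pool 4 replicate 1 left out), with 32 when pool 4 replicate 2 and 17 when pool 1 replicate 1 was left out.

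P2rx4 and Atg9b, which were named as the markers of this comparison with earlier results known, both about doubled in pool 3 but held different places among the other groups. P2rx4 encodes an ATP-gated cation channel of the P2X family. It was at 31.9 and 32.6 CPM in pool 3, against 14.8 and 12.9 CPM in pool 1 and 14 and 15.5 CPM in pool 4. Pool 2 had 13.2 and 13.4 CPM and scramble 32.6, 28.7 and 25.2 CPM. Pool 3 thus overlapped scramble, and the 3 pools that hold siRNA 8 lay together well below. The difference of pool 3 from pools 1 and 4 was 1.17 ± 0.06 log2, a 2.25-fold higher level (SE; edgeR adjusted p = 4.28e-11). In mm10 the gene spans bases 122707544 to 122729738 of chromosome 5, on the plus strand.

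Atg9b encodes a transmembrane protein related to ATG9A, which supplies membrane to forming autophagosomes. It was at 22.2 and 20.9 CPM in pool 3, against 9.88 and 10.0 CPM in pool 1 and 10.1 and 9.98 CPM in pool 4. Pool 2 had 3.50 and 4.20 CPM and scramble 3.66, 3.94 and 3.88 CPM. Atg9b therefore formed 3 steps that did not overlap, with pool 2 and scramble at the bottom, pools 1 and 4 in the middle and pool 3 on top. The log2 difference of pool 3 was 1.10 ± 0.07 (SE; edgeR adjusted p = 1.35e-10). The gene spans bases 24384181 to 24392143 of chromosome 5 (mm10, minus strand), where it overlaps Nos3 on the other strand. The sources used here do not say whether the counting used strand. Nos3 itself was at 0.323 and 0.214 CPM in pool 3 and at no more than 0.233 CPM in pools 1 and 4, below the filter.

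Nrd1 had the smallest p-value among the named genes that were higher. It encodes nardilysin, a metalloprotease. Its groups were placed as those of P2rx4 were, at 232 and 224 CPM in pool 3, against 151 and 151 CPM in pool 1 and 146 and 155 CPM in pool 4. Pool 2 had 142 and 149 CPM and scramble 212, 228 and 250 CPM. The difference of pool 3 was 0.60 ± 0.03 log2 (SE; edgeR adjusted p = 2.5e-11). Nrd1 shares its locus with Osbpl9 on the other strand. Atp2a2, which encodes the calcium pump SERCA2 of the endoplasmic reticulum, was at 360 and 354 CPM in pool 3 and at 237 to 256 CPM in pools 1 and 4, with pool 2 at 321 and 334 CPM (0.54 ± 0.03 log2, edgeR adjusted p = 8.75e-11). Scramble was at 286, 522 and 518 CPM, so its replicate 1 lay below pools 3 and 2 and its replicates 2 and 3 above every pool. Mcam, which encodes an adhesion molecule of the immunoglobulin family, was at 269 and 268 CPM in pool 3 and at 186 to 190 CPM in pools 1 and 4. In pool 2 it was at 201 and 196 CPM and in scramble at 170 to 215 CPM, so pool 3 was above every other library.

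**Figure D2:**
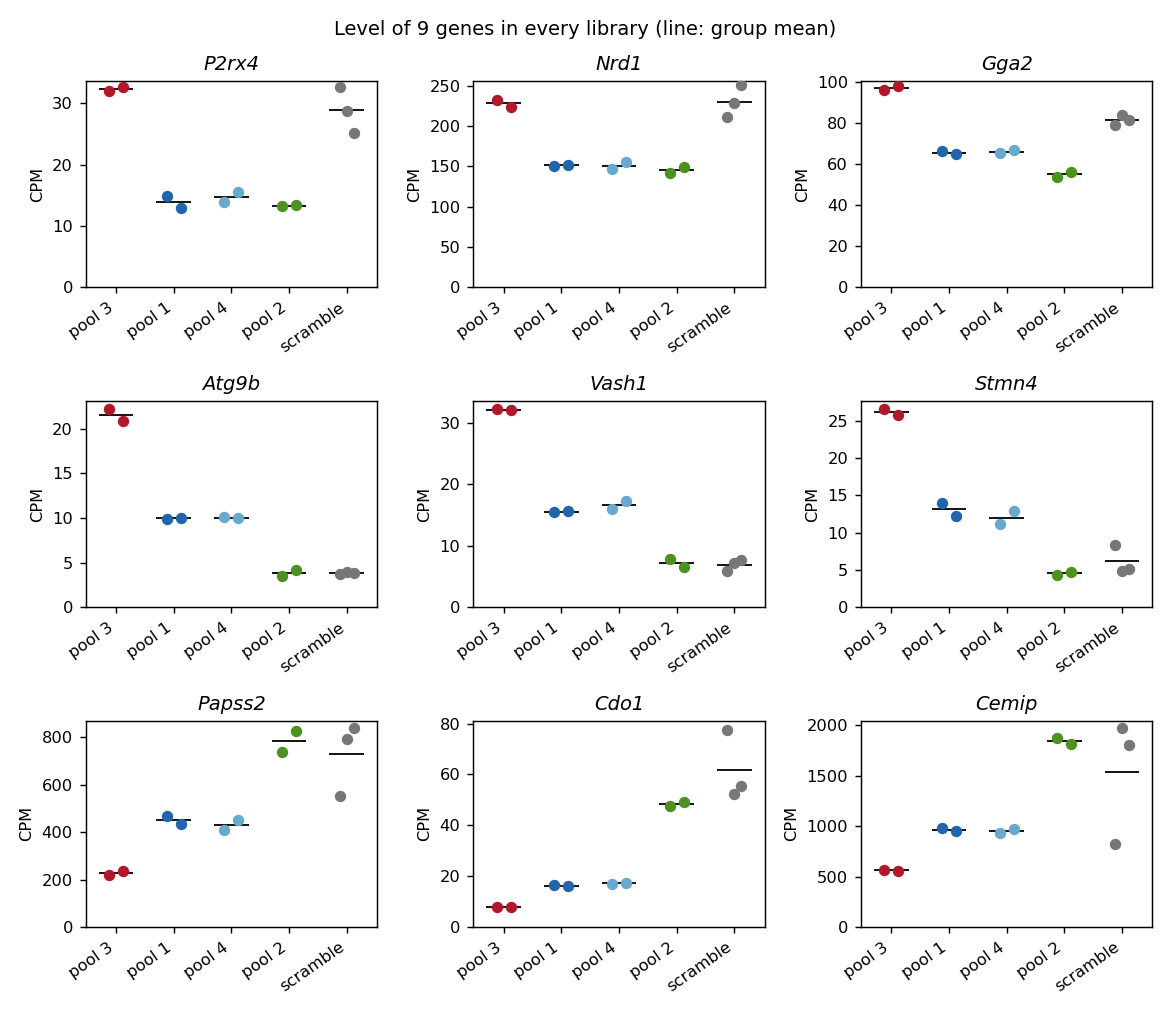
CPM (y axis, from 0) of 9 genes in each of the 11 libraries, by group, with the group mean as a line. In the top row pool 3 lies within or above the range of scramble, and pools 1, 4 and 2 lie below pool 3. In the middle row pool 3 is highest, pools 1 and 4 lie between, and pool 2 and scramble are lowest. The bottom row is the middle one turned round, with scramble replicate 1 apart for Cemip.

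Among the other large increases, several took the stepped form of Atg9b. Vash1, which encodes vasohibin 1, an enzyme that trims tubulin, was at 32.3 and 32.1 CPM in pool 3 and at 15.4 to 17.4 CPM in pools 1 and 4. Pool 2 and scramble lay at 5.82 to 7.78 CPM. Its log2 difference was 1.0 ± 0.06 (SE; edgeR adjusted p = 8.75e-11). Stmn4, of the stathmin family of tubulin-binding proteins, was at 26.6 and 25.9 CPM in pool 3, against 11.1 to 14 CPM in pools 1 and 4, 4.34 and 4.71 CPM in pool 2 and 4.89 to 8.39 CPM in scramble. Ptx3, a pentraxin of the cumulus matrix, was at 37.7 and 32.5 CPM in pool 3, against 17.4 to 20.8 CPM in pools 1 and 4. It was at 8.35 and 6.57 CPM in pool 2 and at 8.62 to 11.6 CPM in scramble. The steps did not overlap in any of these 3 genes.

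Cldn1, which encodes the tight junction protein claudin 1, had the largest increase by the naming rule. It was low, at 11.1 and 9.33 CPM in pool 3, against 3.74 to 4.75 CPM in pools 1 and 4, and rose by 1.26 ± 0.11 log2 (SE; edgeR adjusted p = 2.2e-08). Others of the 12 largest increases were Abca13 (1.05), an ABC transporter gene, Sdcbp2 (1.02), the receptor tyrosine kinase gene Ret (0.95), the adhesion receptor gene Adgrg3 (0.95) and the secreted peptide gene Vgf (0.87), all in log2. In Abca13, with scramble at 4.12, 15.6 and 12.9 CPM against 14.2 to 16.5 CPM in pools 1 and 4, and in Vgf, scramble overlapped pools 1 and 4, so these genes were not stepped. Each was called against pool 1 and against pool 4 in separate contrasts.

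Among decreases Cemip had the smallest p-value. It encodes a hyaluronan-binding protein that takes part in hyaluronan breakdown. It was at 567 and 559 CPM in pool 3, against 982 and 949 CPM in pool 1 and 929 and 974 CPM in pool 4. Pool 2 had 1878 and 1811 CPM, and scramble 819, 1976 and 1806 CPM. The log2 difference was −0.77 ± 0.03 (SE; edgeR adjusted p = 5.65e-13). Papss2, which encodes an enzyme that makes the sulfate donor PAPS, was at 217 and 236 CPM in pool 3, against 408 to 469 CPM in pools 1 and 4, 736 and 828 CPM in pool 2 and 550 to 838 CPM in scramble (−0.96 ± 0.04, edgeR adjusted p = 4.32e-12). Cdo1, the cysteine dioxygenase gene, was at 7.75 and 7.89 CPM in pool 3, against 16.2 to 17.4 CPM in pools 1 and 4. It was at 47.7 and 49.0 CPM in pool 2 and at 52.4 to 77.7 CPM in scramble. Among the siRNA pools, pool 3 was lowest in these 3 genes, pools 1 and 4 came next and pool 2 was highest, with no overlap. Scramble replicate 1 lay below pools 1 and 4 for Cemip.

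The remaining large decreases were of the same size or smaller. Smpd3, which encodes a neutral sphingomyelinase, was at 7.10 and 6.49 CPM in pool 3 and at 11.5 to 13.4 CPM in pools 1 and 4, with pool 2 at 30.9 and 29.3 CPM. Car14 (−0.87), a carbonic anhydrase gene, and Popdc2 (−0.86), a cyclic AMP-binding membrane protein gene, were stepped in the same way. Thsd4 was not. It encodes a matrix protein of the ADAMTS-like family and was at 117 and 127 CPM in pool 3, against 207 to 210 CPM in pools 1 and 4 and 223 and 222 CPM in pool 2, with scramble at 65.1, 169 and 174 CPM. Pool 3 thus lay between scramble replicate 1 and the other scramble libraries. Prkab2, a regulatory subunit gene of AMP-activated kinase, was at 159 and 162 CPM in pool 3, against 231 to 237 CPM in pools 1 and 4 (−0.54 ± 0.03), with pool 2 at 378 and 368 CPM and scramble at 117, 318 and 326 CPM. Nr0b2, which encodes the orphan receptor SHP (−0.89), Epb41l4b (−0.83) and Ndst4, a heparan sulfate sulfotransferase gene (−0.83), were lower as well, in log2.

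The largest fitted decreases of all by the naming rule belonged to 3 genes that also varied within and between pools 1 and 4. Rn45s, the ribosomal RNA precursor, was at 1096 and 785 CPM in pool 3, against 2202 and 1189 CPM in pool 1 and 5473 and 3312 CPM in pool 4. Mir6236 was at 18.3 and 11.3 CPM in pool 3 and at 18.9 to 99.7 CPM in pools 1 and 4. Lars2, the mitochondrial leucyl-tRNA synthetase gene, was at 96.4 and 80.4 CPM in pool 3 and at 110 to 430 CPM in pools 1 and 4. In all 3 genes pool 4 replicate 1 was highest and pool 1 replicate 2 lowest among the 4 libraries. With these genes left out before scaling, 4151 genes were called.

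Whether the genes that set pool 3 apart also separate other groups was examined in libraries that the contrast did not use. Genes called higher in pool 3 against pool 1 (1713) were looked up in pool 4 and pool 2, which share no library with that contrast. Both pool 4 libraries lay above both pool 2 libraries in 1249 of them (72.9%), against 31.9% of all genes tested. Of the 2019 genes called lower, both pool 4 libraries lay below both pool 2 libraries in 1594 (78.9%), against 34.2% of all genes. The reverse order was seen in 6.77% of the higher genes and 6.19% of the lower ones. The same count with pools 1 and 4 exchanged gave 69.9% for the 1325 genes higher in pool 3 against pool 4 (31.1% of all genes), and 82.2% for the 1737 lower ones (34.2%).

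Set against scramble replicates 2 and 3 in place of pool 2, the shares were 65.5% and 72.1% for pool 4 (32.2% and 30.1% of all genes) and 59.6% and 72.6% for pool 1 (31.2% and 29.9%). Scramble replicate 1 was left out of these counts. It stood apart from the other scramble libraries, with a chi-square per degree of freedom of 289 and 311 against them, where replicates 2 and 3 gave 6.55 and the pairs of pools 3, 1 and 4 gave 2.72 to 3.49. Most genes called higher in pool 3 against pool 1 also lay higher in pool 4 than in pool 2 or these scramble libraries. Pool 2 and scramble are groups without siRNA 7, but they differ in more than that. Pool 2 held siRNA 6, which pool 4 lacked, and siRNA 9, which pool 1 lacked, and scramble held no Akt1 siRNA. The part of siRNA 7 in these counts can thus not be told apart. The median difference of pool 4 minus pool 2 was 0.14 log2 for the higher genes and −0.22 for the lower ones, against 7.54e-05 over all genes.

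**Figure D3:**
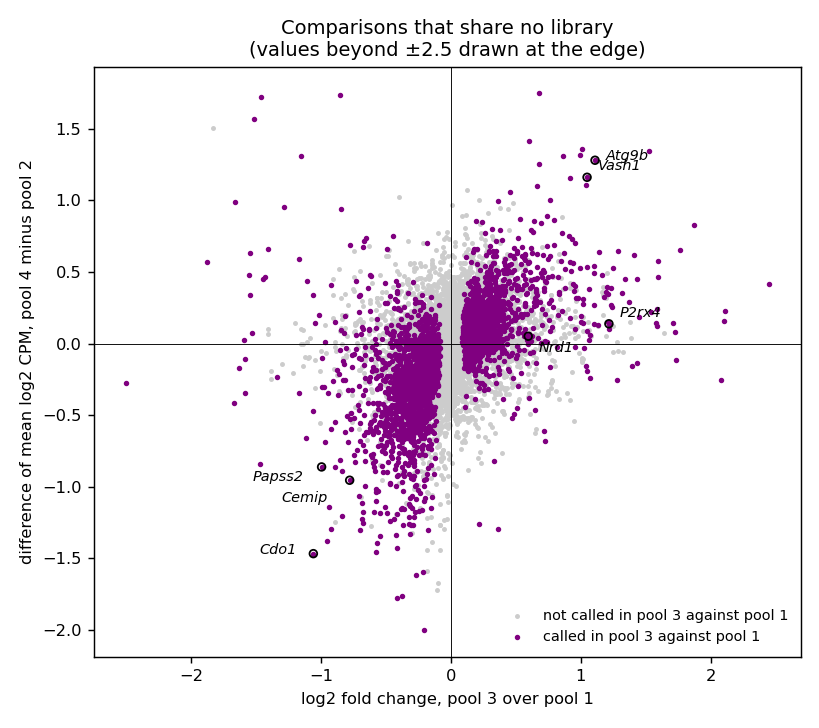
Log2 fold change of pool 3 over pool 1 (x axis) against the difference of mean log2 CPM of pool 4 minus pool 2 (y axis) for the 13953 genes tested, with genes called in pool 3 against pool 1 in purple. Called genes lie mostly in the upper right and lower left, where Atg9b, Vash1, Papss2, Cemip and Cdo1 sit, while P2rx4 and Nrd1 lie near 0 on the y axis.

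The P2rx4 arrangement was looked for in pool 2 against scramble, 2 groups that take no part in the comparison and differ in Akt1 knockdown by siRNAs 6, 8 and 9. With all 3 scramble libraries edgeR called no gene, with 46 higher and 94 lower at an unadjusted p below 0.05. With scramble replicate 1 left out, an analysis added after the data were seen, it called 101 genes higher (0.744% of 13583) and 241 lower (1.77%). Of the 241 lower in pool 2, 99 (41.1%) were among the 1846 genes higher in pool 3 than in pools 1 and 4, which is 5.36% of those 1846. Of the 101 higher in pool 2, 55 (54.5%) were among the 2244 genes lower in pool 3, or 2.45% of those. Genes called in the same direction in both numbered 9 of 101 (8.91%) and 52 of 241 (21.6%). Over all 13953 genes tested in the main comparison, 13.5% were higher in pool 3 and 16.1% lower. The share lower in both, 21.6%, thus also lay above that of all genes, though less so than the 2 opposite shares. The shares of the pool 3 lists are limited by how few genes pool 2 against scramble called. By the order of libraries alone, with no test, both pool 2 libraries lay below scramble replicates 2 and 3 in 455 of the 1878 higher genes (24.2%, against 18% of all genes), and above them in 714 of the 2246 lower genes (31.8%, against 24.9%).

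Beside P2rx4, Nrd1 and Atp2a2, further genes with such opposite changes were taken by size after their values were seen. In pool 2 against scramble without replicate 1, P2rx4 differed by −1.03 and Nrd1 by −0.73 log2. Gga2, which encodes an adaptor for sorting at the trans-Golgi network, was at 96.3 and 98.3 CPM in pool 3, against 64.9 to 66.7 CPM in pools 1 and 4, 54.0 and 56.0 CPM in pool 2 and 78.8 to 84.0 CPM in scramble. Polr3g, an RNA polymerase III subunit gene, was at 21.0 and 19.9 CPM in pool 3, against 12.5 to 14.7 CPM in pools 1 and 4, 13.1 and 14 CPM in pool 2 and 21.4 to 29.9 CPM in scramble. Gstm1, a glutathione transferase gene with close paralogs between which reads may be split, was at 110 and 123 CPM in pool 3 and at 73.5 to 82.8 CPM in pools 1 and 4. Pool 2 had 66.4 and 67.7 CPM and scramble 99.9 to 215 CPM. In the other direction Slc40a1, the iron exporter gene, was at 48.9 and 48.2 CPM in pool 3, against 70.5 to 73.0 CPM in pools 1 and 4 and 119 and 118 CPM in pool 2. Scramble was at 60.1 to 83.4 CPM.

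Gene lists describe which functions these changes fell on. Each list is given by its count of calls and its median, beside 13.5% higher, 16.1% lower and a median of 0.00184 log2 over all genes tested. Lists were chosen with earlier results of these data known, and no list was tested as a whole.

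**Figure D4:**
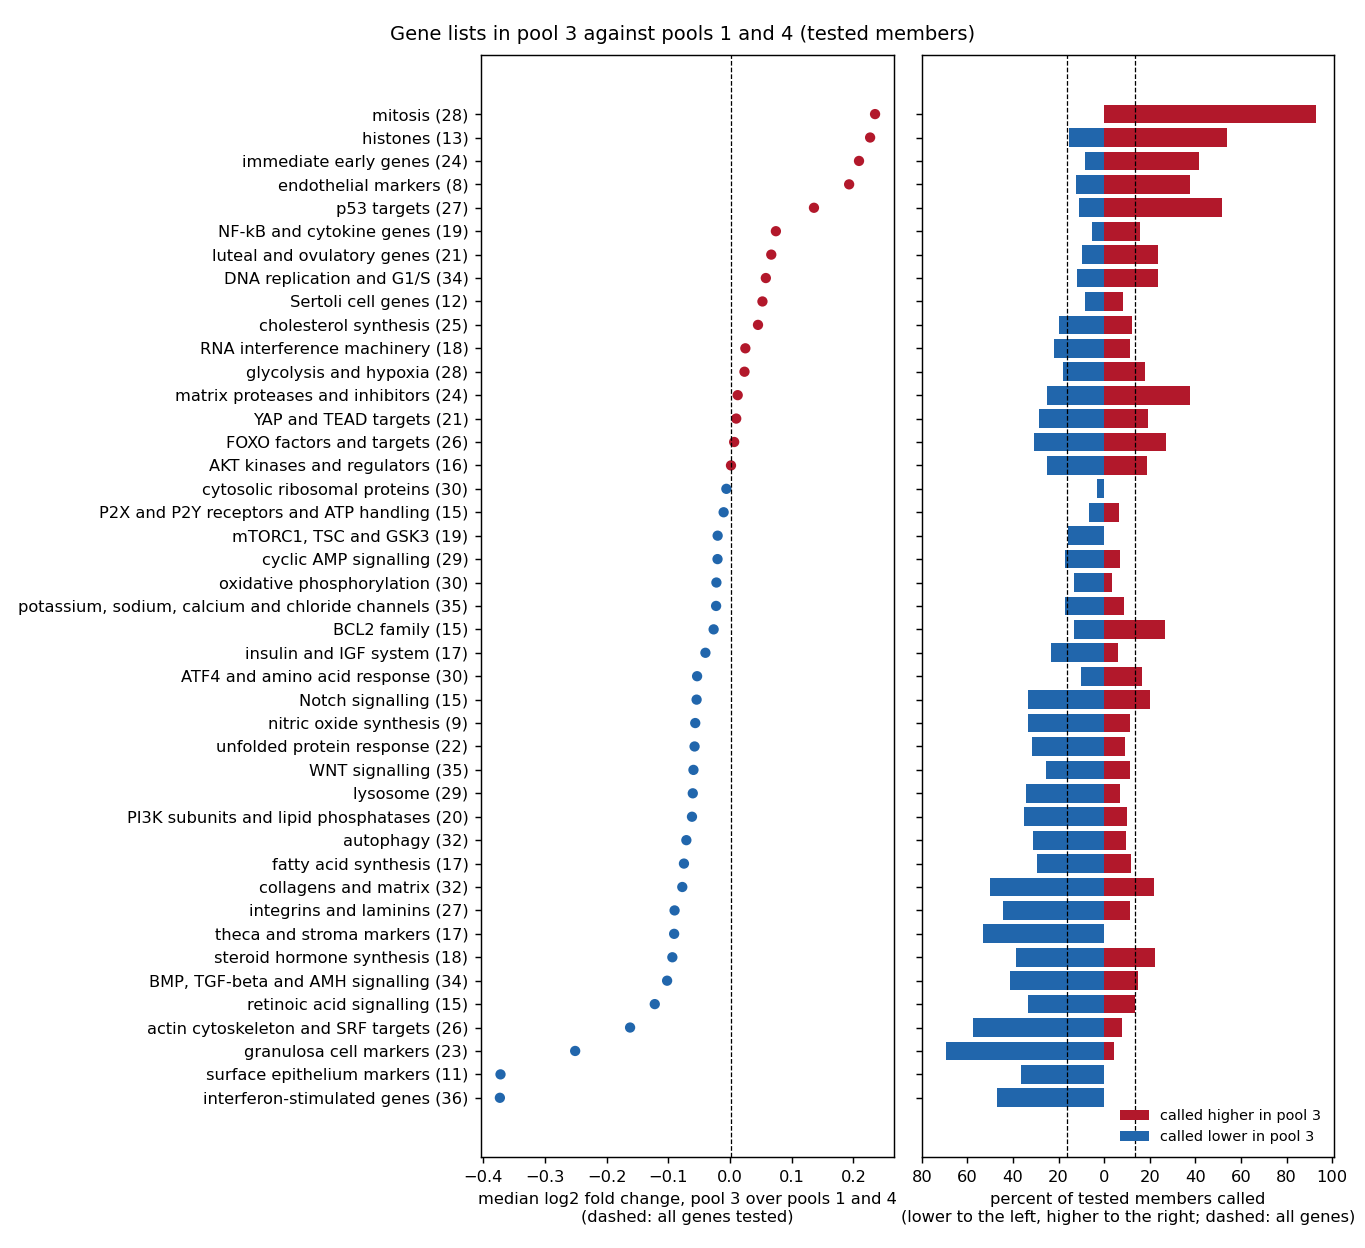
Median log2 fold change of pool 3 over pools 1 and 4 (left) and the percent of tested members called lower and higher (right, bars from 0) for gene lists with at least 8 tested members, whose number is in parentheses. Mitosis genes lie at the top with 26 of 28 called higher, interferon-stimulated genes, surface epithelium and granulosa cell markers at the bottom, and ribosomal protein genes near 0.

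Mitosis genes were higher in pool 3 as a group. Of 28 tested, 26 were called higher and none lower, with a median of 0.24 log2. Cenpf, which encodes a kinetochore protein of dividing cells, was at 112 and 110 CPM in pool 3, against 80.3 and 81.3 CPM in pool 1 and 82.4 and 86.3 CPM in pool 4, a difference of 0.42 ± 0.03 log2 (SE; edgeR adjusted p = 7.47e-09). Hmmr, the gene of a spindle-associated hyaluronan receptor, was at 155 and 148 CPM in pool 3 and at 115 to 118 CPM in pools 1 and 4. Ube2c, a ubiquitin-conjugating enzyme gene of the anaphase-promoting complex, was at 128 and 134 CPM in pool 3 and at 99.3 to 104 CPM in pools 1 and 4. The changes were small at Cdk1 (0.17), Mki67 (0.15) and Top2a (0.08), and Birc5 (0.02) and Aurka (−0.08) were not called. The list median was 0.27 and 0.20 log2 in the pool 3 libraries and −0.02 to 0.02 in those of pools 1 and 4. It lay at −0.11 and −0.16 in pool 2 and at −0.26 to −0.08 in scramble, so the list medians were stepped here too. Single members were not all stepped. Ube2c was at 162 CPM in scramble replicate 1, above pool 3. Top2a was at 304 and 303 CPM in pool 2, against 293 to 303 CPM in pools 1 and 4.

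Many mitosis genes share a short promoter element, the cell cycle homology region, to which the DREAM and MuvB complexes bind. Its letters TTTGAA were searched on both strands in RefSeq promoter windows of GRCm38.p6, from 250 bases before to 50 after the start. Of the 26 higher mitosis genes, 20 had a window and 15 of these held it (75%), against 20.2% of 27025 genes with a window. The search was chosen after the values were seen and a match is a description of letters only. Mitosis genes often share the element and 26 of 28 were called, so the share follows from the list. It does not bear on what changed in pool 3. The stretch around the match in the 3 mitosis genes with the largest increases among those with a match is printed 5′ to 3′ on the gene's strand, with the motif in capitals:
Cenpf, chr1:189688057-189688144, minus strand: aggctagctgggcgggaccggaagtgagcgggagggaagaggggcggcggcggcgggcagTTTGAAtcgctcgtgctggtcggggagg
Hmmr, chr11:40733408-40733489, minus strand: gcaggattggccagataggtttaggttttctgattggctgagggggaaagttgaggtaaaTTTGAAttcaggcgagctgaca
Ube2c, chr2:164769840-164769935, plus strand: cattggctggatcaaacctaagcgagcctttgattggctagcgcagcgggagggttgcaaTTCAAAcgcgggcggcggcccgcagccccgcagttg
In Ube2c the match is on the other strand and reads as the reverse complement. In Cenpf and Hmmr the match lies just after the annotated start, at positions 3 and 9, and in Ube2c at position −29.

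Genes of DNA replication and the G1/S transition moved less, with 8 of 34 higher, 4 lower and a median of 0.06 log2. The replicative helicase genes Mcm2 (0.09), Mcm3 (0.14) and Mcm7 (0.11) and the polymerase gene Pold1 (0.21) were higher. Thymidine kinase Tk1 (−0.22) and cyclin E1, Ccne1 (−0.18), were lower. Leaving out pool 3 replicate 1 left 2 higher and 2 lower. There were 5 higher without pool 1 replicate 1, and 2 lower without pool 1 replicate 2. Histone genes were mostly higher, 7 of 13 with 2 lower and a median of 0.23 log2. They included the replacement histone genes H3f3a (0.33) and H3f3b (0.28) and the linker histone genes H1fx (0.61), H1f0 (0.23) and Hist1h1c (0.37). Replication-dependent histone mRNAs lack poly(A) tails, so a library made from poly(A) RNA does not measure them in full, and histone paralogs can share reads.

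Targets of p53, the transcription factor of the DNA damage response, were also more often higher, 14 of 27, with 3 lower and a median of 0.14 log2. Gdf15, a stress-induced cytokine gene, was at 7.32 and 7.28 CPM in pool 3 and at 4.35 to 5.12 CPM in pools 1 and 4 (0.67 ± 0.10 log2, SE; edgeR adjusted p = 3.78e-05). Mdm2, which encodes the ubiquitin ligase of p53, was at 277 and 264 CPM in pool 3 and at 217 to 231 CPM in pools 1 and 4 (0.29 ± 0.03). The proapoptotic genes Bax (0.22), Bbc3 (0.26) and Pmaip1 (0.28) were higher and so was Trp53 itself (0.14). Pmaip1 overlapped pool 1, at 10.9 and 8.63 CPM in pool 3 and 8.71 and 7.97 CPM in pool 1. It was not called against pool 1 by itself, and it lost its call with DESeq2 and limma-voom. Bbc3 was not called against pool 4 by itself. The median of the p53 list was 0.21 log2 against pool 1 and 0.095 against pool 4. Cdkn1a, which encodes the cell cycle inhibitor p21, went the other way, at 242 and 240 CPM in pool 3 and 269 to 288 CPM in pools 1 and 4, and pool 2 and scramble were higher still at 326 to 433 CPM. Of these targets, 9 were higher and 1 lower without pool 3 replicate 1, and 1 was lower without pool 3 replicate 2. Of the BCL2 family, 4 of 15 were higher and 2 lower, among them Bak1 (−0.27) and Bcl2l13 (−0.36). The 4 were 2 without pool 3 replicate 1.

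Immediate early genes, which are induced within minutes by growth factors or stress, had 10 of 24 higher, 2 lower and a median of 0.21 log2. Dusp1, a phosphatase gene that ends MAP kinase signals, was at 155 and 155 CPM in pool 3, against 94.4 and 101 CPM in pool 1, 110 and 108 CPM in pool 4 and 52.9 to 72.9 CPM in pool 2 and scramble (0.58 ± 0.04, edgeR adjusted p = 3.15e-09). Fosb (0.61), Junb (0.35), Atf3 (0.35) and Myc (0.27) were higher as well, while Fosl2 (−0.27) and Klf2 (−0.34) were lower. Part of this list separated pool 1 from pool 4. The list median against pool 1 was 0.31 log2 and against pool 4 it was 0.13. The count of higher genes was 6 without pool 3 replicate 1 and 15 without pool 4 replicate 2.

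Markers of granulosa cells were lower in pool 3. Of 23 tested, 16 were called lower and 1 higher, with a median of −0.25 log2. Inha, the inhibin alpha subunit gene, was at 1211 and 1329 CPM in pool 3, against 1798 and 1723 CPM in pool 1 and 1649 and 1757 CPM in pool 4 (−0.45 ± 0.04 log2, SE; edgeR adjusted p = 1.2e-08). It was at 1968 and 2133 CPM in pool 2 and at 2188 to 3446 CPM in scramble. Bmpr1b, a BMP receptor gene needed for cumulus function, was at 16.3 and 16.4 CPM in pool 3, against 24.3 to 27.6 CPM in pools 1 and 4 and 37.5 and 44.1 CPM in pool 2 (−0.67 ± 0.06, edgeR adjusted p = 4.59e-08). The transcription factor genes that set granulosa identity were lower too, with log2 differences of −0.35 for Foxl2, −0.33 for Nr5a1, −0.23 for Gata4, −0.20 for Nr5a2 and −0.14 for Wt1. Esr2, the estrogen receptor beta gene (−0.47), Gja1, the gap junction gene for connexin 43 (−0.44), and Fst, the activin-binding follistatin (−0.36), were lower. Inhbb (0.15), the inhibin beta B subunit gene, was higher. Cyp19a1 (−0.29) and Amh (−0.78), both near absent, were not called.

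**Figure D5:**
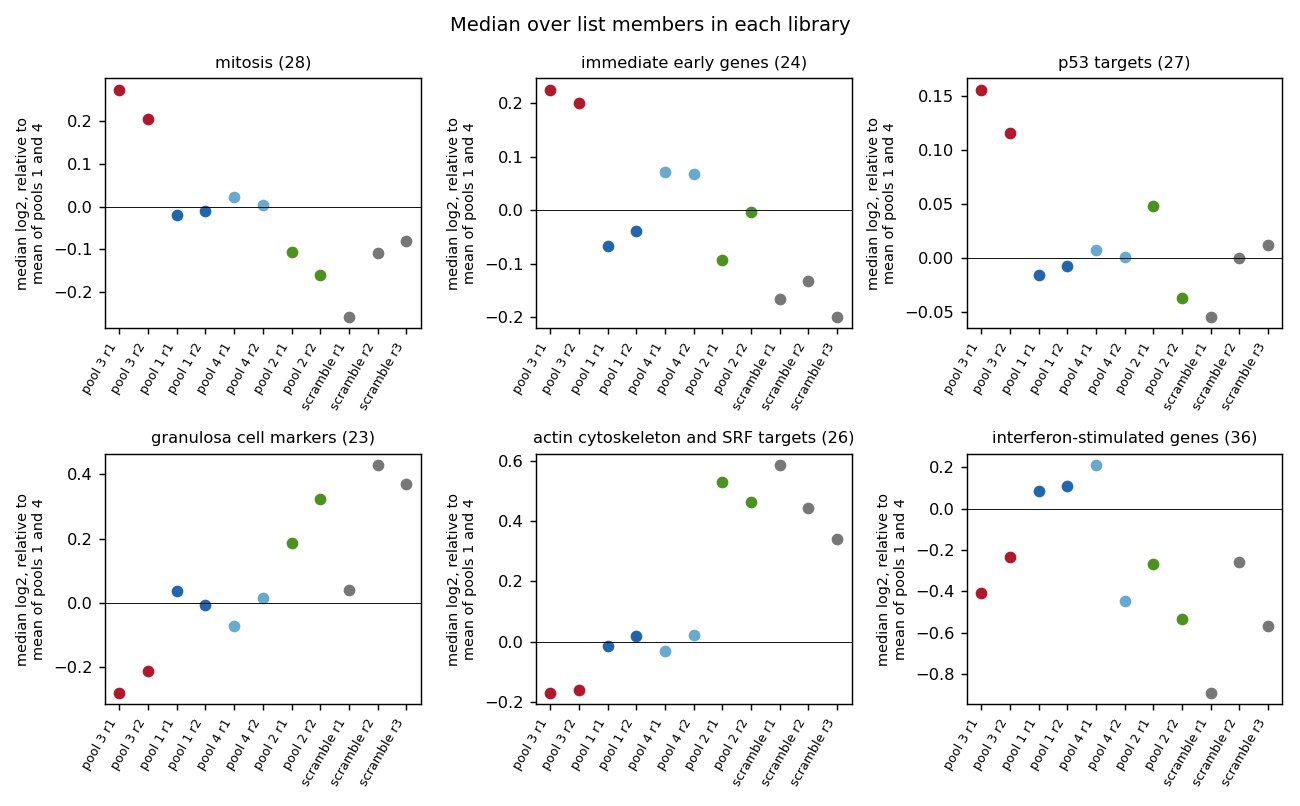
Median log2 CPM over the tested members of 6 lists in each of the 11 libraries (y axis, relative to the mean of the 4 libraries of pools 1 and 4), with r1 to r3 for replicates. For mitosis pool 3 is highest and for granulosa cell markers and actin genes it is lowest, while for interferon-stimulated genes pool 4 replicate 2 lies with pool 3 rather than with the other libraries of pools 1 and 4.

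In bulk RNA, fewer cells of a type and less RNA per cell cannot be told apart, so markers of other cells were set beside these values. Summed CPM of the 10 markers that define granulosa cells was 1990 to 2130 in pool 3, against 2540 to 2700 in pools 1 and 4. Inha made up most of this sum, at 1210 and 1330 CPM in pool 3 and 1650 to 1800 CPM in pools 1 and 4. The 7 theca and stroma markers summed to 2380 to 2440 in pool 3, against 2720 to 2860 in pools 1 and 4. Cyp17a1 and Insl3, which define theca cells, were at means of 0.186 and 0.0178 CPM. Col1a1, at 1340 and 1430 CPM, and Acta2, at 869 and 814 CPM, made up most of the theca and stroma sum in pool 3. Endothelial markers summed to 15.4 to 17.5 in pool 3, against 13.8 to 16.5 in pools 1 and 4. Immune markers summed to 7.86 to 9.24 in pool 3, against 5.38 to 6.58 in pools 1 and 4, with Ptprc at a mean of 0.0391 CPM. Oocyte markers summed to 4.80 to 5.74 in pool 3, against 3.06 to 4.56 in pools 1 and 4, and surface epithelium markers to 53.6 to 54.2 in pool 3, against 74.9 to 76.7 in pools 1 and 4. The red cell genes Hba-a1 and Hbb-bs were at 0 in all 6 libraries. Within the longer marker lists, 9 of 17 theca and stroma genes were lower, as were 4 of 11 surface epithelium genes, while 2 of 5 immune genes were higher. Of these immune genes, Cd3e was near the floor, at 0.861 and 0.887 CPM in pool 3 and 0.285 to 0.532 CPM in pools 1 and 4. Its call was lost with either pool 3 library left out. Of 8 endothelial genes 3 were higher and 1, Emcn (−0.32), was lower. The 9 theca and stroma calls numbered 5 when pool 3 replicate 1 was left out, the 3 higher endothelial calls 1 when either pool 3 library was, and both immune calls, Csf1r and Cd3e, were lost without pool 3 replicate 2. Of 3 oocyte genes 1 was higher, and of 12 genes of Sertoli cells, the counterpart of granulosa cells in the testis, 1 was higher and 1 lower. The part of other cells in the granulosa result was not tested.

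Steroid synthesis genes were partly lower, with 7 of 18 genes lower, 4 higher and a median of −0.09 log2. Hsd3b1, which encodes the enzyme that makes progesterone from pregnenolone, was at 974 and 1049 CPM in pool 3, against 1250 to 1396 CPM in pools 1 and 4 (−0.37 ± 0.04 log2, SE; edgeR adjusted p = 2.11e-07). Hsd3b6, a close paralog with which it may share reads, was at 1.33 and 1.22 CPM in pool 3 and at 0.327 to 0.855 CPM in pools 1 and 4. Cyp11a1 (−0.13), which encodes the enzyme that makes pregnenolone, and the estradiol-forming Hsd17b1 (−0.38) were lower, and the cholesterol carrier gene Star (0.08) was higher. The 4 higher calls were 2 with either pool 3 library left out. Cholesterol synthesis had 3 of 25 higher and 5 lower, among them Insig1 (0.24) and Sc5d (−0.40). Its lower calls were 2 with either pool 3 library left out and 3 without pool 1 replicate 1 or pool 4 replicate 2, and its higher calls were 6 without pool 1 replicate 1. Fatty acid synthesis had 2 of 17 higher and 5 lower, among them Mid1ip1 (−0.44). These 5 were 2 without pool 3 replicate 1 and 8 without pool 4 replicate 1. Of luteal and ovulatory genes 5 of 21 were higher, among them Ptx3 as above and the prostaglandin receptor Ptger4 (0.33), and 2 were lower. The 5 were 3 without pool 3 replicate 2.

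The BMP, TGF-beta and AMH pathway, through which oocyte and granulosa cells signal, had 14 of 34 genes lower and 5 higher, with a median of −0.10 log2. Among ligands, Bmp2 (−0.41) and Bmp4 (−0.39) were lower, and Tgfb2 (0.36) and Bmp6 (0.26) were higher. Among receptors, Bmpr1b (−0.67), Bmpr1a (−0.25) and Bmpr2 (−0.31) were lower. The extracellular BMP antagonist gene Grem1 (−0.42) and the intracellular inhibitor gene Smad6 (−0.52) were lower. So were Id1 (−0.19), Id2 (−0.15) and Id3 (−0.39), which BMP signals induce. Smad2, Smad3, Smad4 and Smad5 were not called. The 5 higher calls were 3 without pool 3 replicate 2.

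Actin and SRF target genes formed another lower group, with 15 of 26 lower, 2 higher and a median of −0.16 log2. Myl9, a myosin light chain gene, was at 111 and 108 CPM in pool 3, against 152 to 167 CPM in pools 1 and 4 and 272 to 580 CPM in pool 2 and scramble (−0.55 ± 0.04, SE; edgeR adjusted p = 4.98e-10). Lmod1, an actin nucleator gene of smooth muscle, was at 17.9 and 17.0 CPM in pool 3 and at 25.3 to 27.4 CPM in pools 1 and 4. Vcl (−0.49), which encodes the focal adhesion protein vinculin, Acta2 (−0.35), and Srf itself (−0.25) were lower. Tagln2 (0.22) and Actn1 (0.17) were higher, and Actb (−0.03) and Myh9 (0.01) were not called. By library the median was −0.17 and −0.16 log2 in pool 3, against −0.03 to 0.02 in pools 1 and 4. It was 0.53 and 0.47 in pool 2 and 0.34 to 0.59 in scramble, so the distance of pool 3 from pools 1 and 4 was small beside that of pools 1 and 4 from pool 2.

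Adhesion and matrix genes were mixed. Integrins and laminins had 12 of 27 lower and 3 higher, with Itgb5 at 458 and 484 CPM in pool 3 and 652 to 668 CPM in pools 1 and 4, and Lama1 at 377 and 408 CPM in pool 3 and 537 to 558 CPM in pools 1 and 4. Collagens and matrix had 16 of 32 lower and 7 higher. Decorin, Dcn, a small proteoglycan gene, differed by −0.67 ± 0.04 log2 (SE), whereas collagen genes such as Col1a1 (−0.09) and Col4a1 (−0.18) changed less. Fibronectin, Fn1 (0.17), and versican, Vcan (0.16), were higher. Matrix proteases and their inhibitors had 9 of 24 higher and 6 lower. The aggrecanase genes Adamts4 (0.40), Adamts5 (0.35) and Adamts1 (0.25) and the gelatinase gene Mmp2 (0.35) were higher, and the protease inhibitor gene Serpine2 (−0.37) was lower. With pool 3 replicate 1 left out the lower counts were 7 integrin and laminin genes and 9 collagen and matrix genes. The 7 higher collagen and matrix calls were 3 without that library and 4 without pool 3 replicate 2.

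Interferon-stimulated genes had the lowest median of these groups, but on libraries that did not agree. Of 36 tested, 17 were lower and none higher, with a median of −0.37 log2. Rsad2, the gene of the antiviral protein viperin, was at 7.57 and 10.9 CPM in pool 3, against 22.2 and 36.8 CPM in pool 1 and 22 and 8.71 CPM in pool 4. Ifit1, which encodes a protein that binds foreign RNA, was at 4.56 and 7.01 CPM in pool 3, against 12.9 and 21.4 CPM in pool 1 and 13.1 and 5.59 CPM in pool 4. Pool 4 replicate 2 lay within the range of pool 3 for both genes, and pool 2 and scramble were at 1.97 to 7.32 CPM. The list median relative to pools 1 and 4 was −0.41 and −0.23 log2 in pool 3, 0.08 and 0.11 in pool 1, and 0.21 and −0.44 in pool 4 replicates 1 and 2. The 17 lower genes became 29 without pool 4 replicate 2 and 2 without pool 3 replicate 1. Irf7 (−0.75), Isg15 (−0.76), Cxcl10 (−1.16), Ifit3 (−1.19), Oas2 (−1.40) and Ifit3b (−1.44) were among the 17, and the sensor genes Ddx58 (−0.26) and Ifih1 (−0.28) were not called.

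Such genes are switched on through the interferon-stimulated response element, to which IRF proteins bind. Part of that element, a pair of GAAA repeats with any 2 bases between them, was searched in the same windows and on both strands, also after the values were seen. Of the 17 lower genes 12 had a window, and 8 of these held it (66.7%), against 3.99% of 27025 genes. Because members of the list are switched on through this element, the share follows from the list and does not bear on pool 3. The stretches of the 3 with the largest decreases among those with a match are printed 5′ to 3′ on the gene's strand, with matches in capitals, here all in the reverse complement:
Ifit3b, chr19:34607709-34607842, plus strand: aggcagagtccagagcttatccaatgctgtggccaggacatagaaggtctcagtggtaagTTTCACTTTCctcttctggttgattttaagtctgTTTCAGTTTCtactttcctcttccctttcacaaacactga
Rsad2, chr12:26456533-26456632, minus strand: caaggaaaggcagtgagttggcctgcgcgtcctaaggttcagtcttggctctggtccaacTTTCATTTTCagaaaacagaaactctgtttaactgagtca
Ifit1, chr19:34640725-34640843, plus strand: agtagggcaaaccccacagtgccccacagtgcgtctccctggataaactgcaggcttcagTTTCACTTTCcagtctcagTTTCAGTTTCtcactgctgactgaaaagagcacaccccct
The Ifit3b and Ifit1 stretches each hold 2 matches and Rsad2 holds 1. Ifit family members are close paralogs between which reads may be split.

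In the pathway of the target itself calls went in both directions. Of 16 AKT kinases and regulators, 3 were higher and 4 lower. The pseudokinase genes Trib1 (0.28) and Trib2 (0.16), whose products bind AKT, were higher. The AKT phosphatase gene Phlpp1 (−0.22), Pdpk1, the gene of the kinase PDK1 that activates AKT (−0.19), and Mtor (−0.17) were lower. Of 20 PI3K subunits and lipid phosphatases, 2 were higher and 7 lower. The adaptor gene Gab2 was at 66.3 and 68.1 CPM in pool 3 and at 87.1 to 92.2 CPM in pools 1 and 4 (−0.43 ± 0.03, edgeR adjusted p = 1.11e-08). The 7 lower PI3K calls were 4 without pool 3 replicate 2. Pik3ip1, a PI3K inhibitor gene, was at 19.9 and 21.3 CPM in pool 3 and at 24.9 to 25.7 CPM in pools 1 and 4.

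Downstream, mTORC1, TSC and GSK3 genes had 3 of 19 lower and none higher. Ddit4l, which encodes an mTORC1 inhibitor, was at 93.6 and 97.7 CPM in pool 3, against 141 to 151 CPM in pools 1 and 4 (−0.61 ± 0.03, edgeR adjusted p = 8.97e-11). Of 26 FOXO factors and targets, 7 were higher and 8 lower, with no common direction. Pdk4 (0.30), Cat (0.28) and Bcl2l11 (0.26) were higher, while Foxo1 (−0.23), Foxo4 (−0.26), Foxo6 (−0.36) and Sod2 (−0.20) were lower. These were 4 and 3 without pool 3 replicate 1. In the insulin and IGF system, 1 of 17 was higher and 4 lower. Igf1 was at 178 and 182 CPM in pool 3 and at 224 to 247 CPM in pools 1 and 4, and Irs1 (−0.23) was also lower. Igfbp2 (0.29), an IGF-binding protein gene, was higher.

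The families of the marker genes did not move with them. Of 15 P2X and P2Y receptors and ATP-handling genes, P2rx4 was called higher and Camkk2 (−0.14), a kinase gene activated by calcium, was called lower. Of 32 autophagy genes, 3 were higher and 10 lower, with a median of −0.07 log2. Atg9b, Atg10 (0.24) and Wipi1 (0.11) were higher. The lower ones included Atg7 (−0.39), Atg5 (−0.24), Map1lc3b (−0.23) and Gabarap (−0.22), which act in conjugation of LC3 or encode its family, and Ulk1 (−0.19), the initiating kinase gene. Lysosome genes had 10 of 29 lower and 2 higher, among the lower the protease genes Ctsh (−0.38), Ctsl (−0.16) and Ctsb (−0.13). When pool 3 replicate 1 was left out, 6 autophagy and 5 lysosome genes were lower. The 3 higher autophagy calls were 1 with any 1 library of pool 3 or pool 1 left out. Genes of the RNA interference machinery had 2 of 18 higher and 4 lower. Dicer1, which encodes the nuclease that makes small RNAs, was at 143 and 140 CPM in pool 3 and at 110 to 113 CPM in pools 1 and 4 (0.34 ± 0.03). Ago4 (−0.45) and Ago1 (−0.17), Argonaute genes, were lower.

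Other signalling lists were split. WNT signalling had 4 of 35 higher and 9 lower, with Axin2, a target gene and inhibitor of the pathway, at 55.6 and 55.7 CPM in pool 3 and 38.5 to 41.4 CPM in pools 1 and 4, and with the receptor gene Fzd4 (−0.45) lower. The 9 were 3 without pool 3 replicate 1. Notch signalling had 3 of 15 higher, among them the receptor gene Notch3 (0.67) and the ligand gene Jag1 (0.31), and 5 lower, or 3 without pool 3 replicate 1. YAP and TEAD targets had 4 of 21 higher, led by Ankrd1 at 601 and 543 CPM in pool 3 and 376 to 404 CPM in pools 1 and 4, and 6 lower. Cyclic AMP signalling, through which gonadotropins act, had 2 of 29 higher and 5 lower, with the cyclase gene Adcy9 (−0.53) among the lower. Retinoic acid signalling had 5 of 15 lower, among them the degrading enzyme gene Cyp26b1 (−0.33), and 2 higher, among them the binding protein gene Crabp2 (0.31). NF-kB and cytokine genes had 3 of 19 higher, led by Ccl2 (0.75), and 1 lower. Of ion channels, 3 of 35 were higher and 6 lower.

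Housekeeping groups differed among themselves. Of 30 cytosolic ribosomal protein genes 1 was lower (3.33% called) and none higher, with a median of −0.00597 log2 that is 0.00204 with upper-quartile scaling. Oxidative phosphorylation had 1 of 30 higher and 4 lower. Glycolysis and hypoxia genes had 5 of 28 in each direction. Gapdh (0.40) was called higher on few counted reads, 4.95 and 4.65 CPM in pool 3 and 3.06 to 4.38 CPM in pools 1 and 4. Pkm, of the same list, was at 1088 and 1102 CPM in pool 3. Whether reads of Gapdh were split with or lost to similar sequences was not examined, so its CPM may not give its transcript level. Gapdh was called against pool 1 (0.61) but not against pool 4 (0.19). The 5 of 28 in each direction also included Pkm (0.28) and Ndrg1 (0.50), higher, and Hk1 (−0.30) and the glucose transporter gene Slc2a3 (−0.47), lower. Of these, 2 were higher and 3 lower without pool 3 replicate 1, 2 were higher without pool 3 replicate 2, and 3 were higher with either pool 1 library left out. The unfolded protein response had 7 of 22 lower, led by the disulfide isomerase gene Pdia4 at 201 and 208 CPM in pool 3 and 271 to 307 CPM in pools 1 and 4, and 2 higher. These were 3 and 0 without pool 3 replicate 1. The ATF4 and amino acid response had 5 of 30 higher, among them the cystine transporter gene Slc7a11 (0.52), and 3 lower, among them the leucine transporter gene Slc7a5 (−0.36). Nitric oxide synthesis had 1 of 9 higher, Ddah1 (0.20), and 3 lower. With pool 3 replicate 1 left out, the lower calls were 1 in the RNA interference machinery and 1 in oxidative phosphorylation, and the higher calls were 2 in the ATF4 response and 1 among channels. With pool 3 replicate 2 left out, 2 oxidative phosphorylation genes were lower, and the higher calls were again 2 in the ATF4 response and 1 among channels. The ATF4 response had 3 higher and 6 lower without pool 1 replicate 1, 5 lower without pool 1 replicate 2, and 2 higher and 6 lower without pool 4 replicate 2, which also left 1 higher channel gene.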

How the data were processed

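Per the submitters' processing notes, reads were handled with featureCounts 1.5.0-p2, TopHat2, cutadapt 1.9.1 and other tools on the mouse build mm10. The sources used here give none of their settings, strand included. Per the labels' protocols, stranded mRNA libraries from 1.3 µg of RNA were read as single 75-base reads. The authors' deposited files hold raw counts of reads per gene symbol, with 24490 genes and 92 ERCC sequences, which were dropped.

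The 6 libraries' counts entered edgeR 4.0.16 (R 4.3.3, TMM, filterByExpr, two-sided quasi-likelihood F test, Benjamini-Hochberg adjustment over 13953 genes, threshold 0.05). Pool 3 was set against pools 1 and 4 as 1 group, and single pools were compared in a fit with 3 groups. SEs were derived from the F statistic. Replicate numbers did not pair the samples, since deviations of same-numbered libraries correlated at −0.0433 to 0.0191. Libraries held 25568277 to 31907141 counts. Coordinates are from GENCODE M21 in mm10, and promoters are from RefSeq (GRCm38.p6).

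The members and the 46 gene lists were chosen with earlier results of these data known. Named genes were Akt1, Akt2, P2rx4, Atg9b and Nos3, the 12 largest increases and decreases (called, average log2 CPM of at least 2, pool 3 outside the range of the other 4 libraries), the 4 smallest p-values per direction and up to 2 called members per list. Genes that are predicted, mitochondrial or pseudogenes were not named. Further list members were named after their values were seen, by size or known role. Some genes that the rule names are not reported here. Alternatives were other scalings, filters and tools (DESeq2 1.42.0 and limma 3.58.1 with voom), other sets of libraries, a replicate block and leaving out each library. The authors' table of all pools against scramble was not used.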

Additional observations from a re-analysis of the deposited data

Results flagged for a closer look

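Of 110 named genes examined, 4 had 1 library of pools 1 and 4 far from the other 3, with a gap to the nearest library above Dixon's 95% critical value for 4 samples. Chance flags about 1 in 20 such groups. Camkk2 was at 246 CPM in pool 1 replicate 1, against 236 to 237 CPM in the others. Ctsh was at 45.0 CPM in pool 4 replicate 1, against 51.0 to 51.6 CPM, and Ddx4, a germ cell gene, at 1.82 CPM in that library, against 2.91 to 2.96 CPM. Cyp26b1 was at 122 CPM in pool 4 replicate 1, against 114 to 115 CPM.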

How the results depend on the processing

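The 4124 calls of pool 3 against pools 1 and 4 were 4134 with RLE scaling, 4116 with upper-quartile scaling, 4101 with limma-voom, 3111 with DESeq2 and 4204 in a fit of the 8 Akt1 siRNA libraries. They numbered 2654 at an adjusted p below 0.01 and 301 at 1.5-fold or more. A fit of all 11 libraries in 5 groups left 2, with 1041 genes at an unadjusted p below 0.05, and 0 against pool 1, 0 against pool 4 and 0 between pools 1 and 4, with 842, 723 and 85 at an unadjusted p below 0.05. Without scramble replicate 1 that fit, added after the data were seen, gave 3469, and 3 between pools 1 and 4. DESeq2 gave 2206 calls against pool 1 (3732 in edgeR) and 1784 against pool 4 (3062). Without the filter on low counts pools 1 and 4 differed in 42 genes. Leaving out each library gave 2308 to 4080 calls, 2232 to 3830 against pool 1, 1856 to 3000 against pool 4, and 4 to 58 between pools 1 and 4. The lowest of the first 3 ranges came without pool 3 replicate 1, where the lone pool 3 library is assumed to vary like the others. The cause of these differences was not tested.

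The replicate block gave 4058, 3569, 2850 and 8 calls and changed no call of a named gene. Without pool 3 replicate 1, 21 of 115 named genes lost their call, and Akt2, not called, had 0.0148 log2, against −0.0164 in all libraries and −0.0494 without pool 3 replicate 2. DESeq2 lost 11 of 111, and the fit of all 11 libraries lost 110 of 115. Both pool 2 libraries lay below all scramble libraries in 229 of the 1878 higher genes (12.2%, against 10.4% of all genes), and in 455 without scramble replicate 1. They lay above all scramble libraries in 542 of the 2246 lower genes (24.1%, against 15.8%), and in 714 without scramble replicate 1. Replicate pairs of pools 3, 1 and 4 differed by a chi-square of 2.72 to 3.49 per degree of freedom, where counting error alone gives about 1, so depth was not the only limit.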
